A study of Rattus norvegicus with 36 samples.

Results

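The miRNAs described here are the mature arms of miR-338 and miR-219, hairpin miRNAs best known from oligodendrocytes, the cells that wrap axons in myelin. The members were chosen by name, with earlier results of these data known, and 5 of the 723 mature miRNAs in the count table carry such a name. Of these, 2 (rno-miR-338-3p and rno-miR-338-5p) have the names searched for. The other 3 (rno-miR-219-5p, rno-miR-219-1-3p and rno-miR-219-2-3p) carry older names without a letter, and the synonyms that RefSeq gives for their genes tie them to miR-219a. The arm that RefSeq names rno-miR-219b comes from Mir2964, on the strand opposite to the miR-219 gene of chromosome 3, and was not counted as a member. The row of the count table tied to this gene is rno-miR-2964, with 0 to 17 counts per library. It was left out although miR-219b was among the names searched for, and it did not pass the filter on low counts. The arm overlaps rno-miR-219-2-3p by 20 bases on the opposite strand. Of the 5 members, 4 passed the filter on low counts, and rno-miR-219-5p did not.

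Small RNA was sequenced from 36 libraries of 12 male heterogeneous stock (HS) rats, an outbred stock, with 3 brain regions from each rat: the nucleus accumbens (NAc) and, in the prefrontal cortex, the infralimbic (IL) and prelimbic (PL) areas. The rats formed 3 groups of 4. Cocaine-naïve rats had no access to the drug, while the other groups had escalated their intake by self-administration, first in short and then in long sessions, and were sampled either at acute withdrawal (16 h in the labels, 18 h in the methods of the study) or after 4 weeks of abstinence. Each library came from dissected tissue of 1 animal that mixes neurons, glia and vessels, so a lower level from fewer cells of a type and one from less RNA per cell cannot be told apart. The table holds miRNAs alone, so the myelin genes that define oligodendrocytes could not be checked, and the cell type that each read came from was not measured.

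A miRNA hairpin is cut into a short duplex whose strands are called the 5p and the 3p arm, after the side of the hairpin they come from. Usually 1 arm is kept by Argonaute proteins, pairs with target mRNAs through its seed (bases 2 to 8) and lowers their output, while the other arm is mostly degraded. In rodents, miR-219-5p and miR-338-3p rise as oligodendrocyte progenitors mature, and they repress factors such as Sox6, Hes5 and the PDGF receptor alpha that keep progenitors dividing. Both are therefore used as signs of maturing or myelinating oligodendrocytes.

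The mature sequences from RefSeq (build GRCr8) are shown because the arms differ in their seeds, given in capitals, and so in what they can pair with. All 5 members matched an entry.
rno-miR-338-3p: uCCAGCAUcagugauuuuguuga
rno-miR-338-5p: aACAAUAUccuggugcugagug
rno-miR-219-5p: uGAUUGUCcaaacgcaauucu
rno-miR-219-1-3p: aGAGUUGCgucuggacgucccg
rno-miR-219-2-3p: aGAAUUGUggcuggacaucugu
The 5 seeds are all different. Among the 693 mature rat miRNAs of the RefSeq table, no other one carries any of them. Names in the count table without a sequence there were not searched.

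The hairpin of miR-338 lies on the minus strand of chromosome 10 at chr10:105796342-105796407, within the span of Aatk, the gene of a kinase of the nervous system. It is shown because its arms are compared with each other below, with the 5p arm as the first capitals and the 3p arm as the second.
Mir338: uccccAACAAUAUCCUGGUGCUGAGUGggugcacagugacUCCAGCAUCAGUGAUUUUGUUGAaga
The hairpins of miR-219 lie on chromosome 3 at chr3:33516504-33516599 (minus strand, within the span of Cercam) and on chromosome 20 at chr20:4831580-4831689 (plus strand). Both hold the sequence of rno-miR-219-5p, so that reads of this arm cannot be given to 1 gene, while the 3p arms differ and each marks 1 gene. In the hairpin on chromosome 3, the capitals are the 5p and then the 3p arm.
Mir219-2: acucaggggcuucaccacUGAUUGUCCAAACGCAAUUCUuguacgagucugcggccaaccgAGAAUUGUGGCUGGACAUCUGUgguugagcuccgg

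The libraries held 6192155 to 18877136 counts (median 10739454), and RNA integrity numbers (RIN) were 7.4 to 9.3. Values are raw counts or log2 CPM, the logarithm of counts scaled to a common library size with TMM factors. For groups, edgeR's quasi-likelihood model was fitted over the 36 libraries together, with RIN as a covariate. A miRNA was called between groups at a fold of 1.5 or more and p below 0.05 before adjustment. In comparisons of regions the rat was a block, and calls needed an adjusted p under 0.05. Tests of whether a change between groups differed between regions had no rat block and used the thresholds for groups. Adjusted p-values are Benjamini-Hochberg values over the 457 miRNAs tested.

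The arms of the 2 families differed widely in level, and the arms known from oligodendrocytes were the scarce ones. rno-miR-219-2-3p was the most abundant member, with 4779 to 56536 counts per library and a mean of 11.06 log2 CPM, rank 49 of 457. rno-miR-338-5p followed at 4451 to 27953 counts and a mean of 9.91 log2 CPM, rank 71. These are the arms opposite to the ones on which the known functions rest. rno-miR-338-3p had 23 to 872 counts per library (mean 3.54 log2 CPM, rank 273), and rno-miR-219-1-3p had 52 to 162 counts (mean 3.12 log2 CPM, rank 297). rno-miR-219-5p had no more than 13 counts in any library and none in 12 of the 36. The 5 arms together made up 0.158% to 0.549% of the counts of a library in the IL, 0.0974% to 0.530% in the PL and 0.374% to 0.642% in the NAc. Counts of different miRNAs depend on how readily each sequence is ligated and read, so these are orders of counts rather than of molecules.

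rno-miR-338-3p was higher in the NAc than in either cortical region in every rat. In the NAc, its levels were 5.67, 5.73, 4.75 and 6.14 log2 CPM in naïve rats M157, M378, M476 and M480. Withdrawal rats M153, M366, M172 and M154 had 4.94, 4.35, 5.16 and 4.92 log2 CPM there, and abstinent rats M170, M363, M472 and M456 had 4.97, 3.76, 5.98 and 5.28 log2 CPM. M363 was thus the lowest of the NAc libraries and M480 the highest. In the PL the same rats, in the same order, had 2.18, 1.45, 3.39 and 2.95 log2 CPM (naïve), 3.35, 2.93, 3.18 and 4.40 log2 CPM (withdrawal) and 2.18, 3.06, 3.13 and 3.17 log2 CPM (abstinence). In the IL they had 2.37, 2.76, 3.64 and 2.62 log2 CPM (naïve), 2.37, 2.06, 1.49 and 2.80 log2 CPM (withdrawal) and 2.93, 1.72, 2.67 and 2.82 log2 CPM (abstinence). No IL library reached the lowest NAc library, and 1 PL library did, that of withdrawal rat M154.

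**Figure D1:**
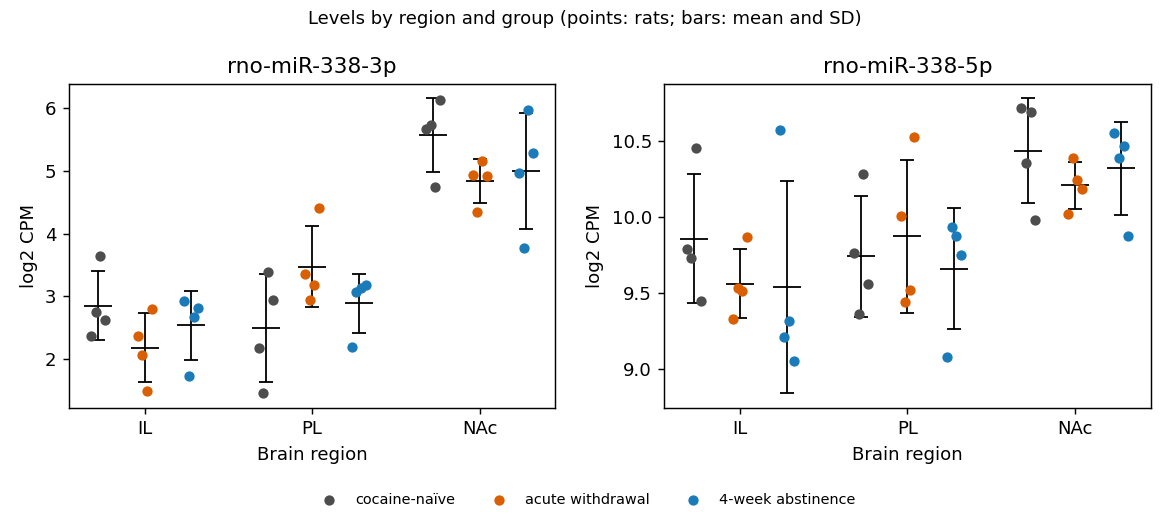
Levels (log2 CPM) of rno-miR-338-3p (left) and rno-miR-338-5p (right) in the IL, PL and NAc of cocaine-naïve, withdrawal and abstinent rats. Each point is 1 rat, and bars give the mean and SD of 4 rats. The NAc points of rno-miR-338-3p lie between 3.76 and 6.14 and those of the IL between 1.49 and 3.64, while the points of rno-miR-338-5p overlap between the regions.

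Averaged over the 3 groups, rno-miR-338-3p was 4.48-fold higher in the NAc than in the PL (log2FC = 2.16, standard error (SE) 0.24, adjusted p = 5.64e-08 by edgeR) and 6.24-fold higher than in the IL (log2FC = 2.64, SE 0.24, adjusted p = 1.21e-09 by edgeR). The NAc exceeded the PL in 12 of 12 rats, by 0.51 (M154) to 4.28 (M378) log2 CPM, and the IL in 12 of 12 rats, by 1.11 (M476) to 3.68 (M172) log2 CPM. Differences between these regions were common, since 67.2% of all miRNAs tested were called between the NAc and PL and 76.6% between the NAc and IL. By p-value, rno-miR-338-3p ranked 34 and 35 of 457 in these comparisons. The PL and IL did not differ beyond their spread (log2FC = 0.48, SE 0.23, adjusted p = 0.108 by edgeR), in a comparison that called 35.2% of miRNAs. Without abstinent rat M170 the difference passed (log2FC = 0.64).

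The opposite arm, rno-miR-338-5p, also had higher levels in the NAc, with a smaller difference. Its mean was 10.32 ± 0.27 log2 CPM in the NAc, 9.76 ± 0.40 in the PL and 9.65 ± 0.47 in the IL (SD, n = 12 each). It was 1.45-fold higher in the NAc than in the PL (a log2FC of 0.54, SE 0.15, adjusted p = 0.00343 by edgeR) and 1.58-fold higher than in the IL (log2FC = 0.66, SE 0.15, adjusted p = 0.000395 by edgeR), and the NAc was the higher in 11 of 12 rats in each case. By p-value it ranked 239 and 257 of 457 against the PL and IL, where 67.2% and 76.6% of all miRNAs tested were called. The PL and IL differed by 0.12 (SE 0.15, adjusted p = 0.559 by edgeR), and without rat M170 by 0.33 (adjusted p = 0.034 by edgeR).

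Because the arms of miR-338 come from 1 hairpin, their ratio was taken within each library, where depth and scaling cancel. rno-miR-338-5p exceeded rno-miR-338-3p in every library. The geometric mean of the 5p to 3p ratio was 140 in the IL (lowest 75.4, highest 261), 112 in the PL (69.8 to 239) and 36.4 in the NAc (14.4 to 98.6). On the log2 scale these are 7.13 ± 0.49, 6.81 ± 0.50 and 5.19 ± 0.77 (SD, n = 12 each). The excess of 5p was thus lower in the NAc, while both arms were higher there.

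The log2 ratio was lower in the NAc than in the PL in 12 of 12 rats (mean difference −1.62, range −3.28 to −0.25), and lower than in the IL in 12 of 12 rats (mean difference −1.94, range −2.98 to −0.87). Exact sign-flip permutation tests over the rats, two-sided and adjusted over the 3 region pairs, gave p = 0.000732 for each. The unadjusted p of 0.000488 is the smallest that 12 rats allow. The PL and IL differed by −0.32 (p = 0.147, adjusted p = 0.147, exact sign-flip permutation test, lower in the PL in 7 of 12 rats). Shifts of the arm ratio between regions were not confined to miR-338. Of the 141 hairpins with both arms tested, it ranked 15 by the size of the difference between NAc and PL and 22 between NAc and IL, where the median sizes over all hairpins were 0.63 and 0.90.

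**Figure D2:**
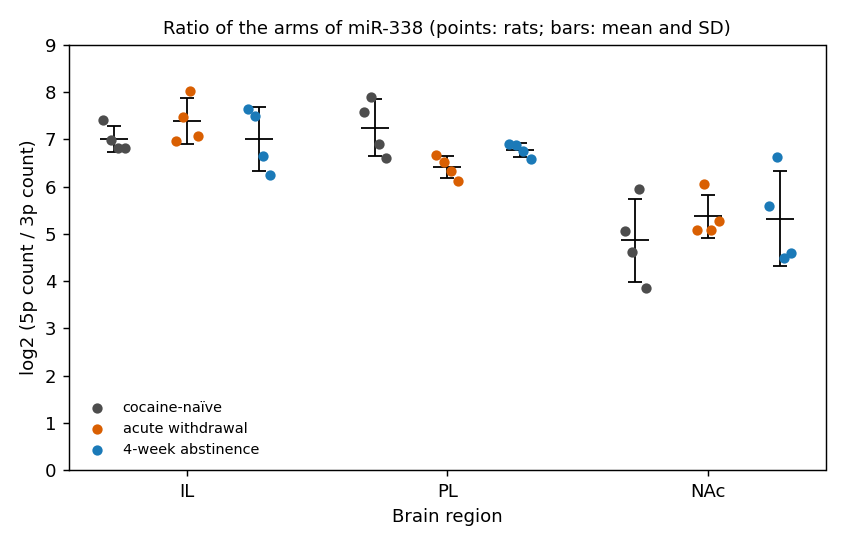
Log2 ratio of the count of rno-miR-338-5p to that of rno-miR-338-3p, with 0.5 added to each, by region and group. Each point is 1 rat, and bars give the mean and SD of 4 rats. The ratios in the NAc lie between 3.84 and 6.62, below most of those in the IL (6.24 to 8.03) and PL (6.12 to 7.90).

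The strand opposite to miR-338 encodes miR-3065, and the mature arms overlap. The arms rno-miR-338-3p and rno-miR-3065-5p share 20 bases in full complementarity, which are shown here as rno-miR-3065-5p with its own seed in capitals.
rno-miR-3065-5p: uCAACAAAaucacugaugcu
Whether the authors' counting used the strand is not given in the sources used here, so reads of the opposite strands may not have been told apart. rno-miR-3065-5p had 10 to 41 counts per library in the NAc, 0 to 5 in the PL and 0 to 7 in the IL. With a minimum count of 10, rno-miR-3065-5p passed the filter only through its NAc libraries, so its differences between regions are descriptions. As fitted by edgeR, it was higher in the NAc than in the PL (log2FC = 3.05, SE 0.43) and the IL (log2FC = 3.40, SE 0.44). No p-value is given, because the filter already selected for a high NAc. Across the 36 libraries, its log2 CPM had a Pearson r of 0.79 with rno-miR-338-3p, and of 0.20 once the mean of each group and region was removed. The points share libraries, rats and depth, so these r values are descriptions. rno-miR-3065-3p, which is complementary to 19 bases of rno-miR-338-5p, had 10 counts at most in any library.

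Between groups, rno-miR-338-3p was the only member past the thresholds, in opposite directions in the PL and NAc at withdrawal. In the PL the counts were 36, 23, 80 and 63 in naïve rats M157, M378, M476 and M480, and 128, 143, 71 and 267 in withdrawal rats M153, M366, M172 and M154. Naïve rats M157 and M378 were low and withdrawal rat M154 was high, and the others overlapped on the CPM scale. All withdrawal libraries of the PL were also deeper (11372613 to 18877136 counts) than all naïve ones (7517269 to 9911807 counts), so that an effect of the group and one of depth cannot be told apart. The level was 1.84-fold higher at withdrawal, with a log2FC of 0.88 ± 0.41 (SE, adjusted p = 0.624 by edgeR). The same comparison called 4.81% of all miRNAs.

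In the NAc the counts were 842, 580, 373 and 801 in naïve rats and 464, 375, 433 and 415 in withdrawal rats, in the same order. In log2 CPM, naïve rat M476 lay among the withdrawal rats and the other naïve rats lay above them. The level was 1.78-fold lower at withdrawal (log2FC = −0.83, SE 0.39, adjusted p = 0.840 by edgeR), in a comparison that called 2.84% of miRNAs. In the IL the difference was −0.52 (SE 0.42, adjusted p = 0.601 by edgeR), where 6.35% of miRNAs were called. The groups overlapped in all 3 regions, and exact two-sided permutation tests gave p = 0.200 in the PL, 0.114 in the NAc and 0.171 in the IL (adjusted p = 0.514 for each over the 9 comparisons of this arm), with 0.0286 the smallest p that 4 rats against 4 allow.

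Both calls depended on single rats. In the PL the call ended without withdrawal rat M154 (log2FC = 0.40), naïve rat M157 (0.73) or naïve rat M378 (0.66), and it ended under limma-voom with the rat as a replicate block (log2FC = 0.84, adjusted p = 0.594). In the NAc the call ended without withdrawal rat M153 (log2FC = −0.87), withdrawal rat M366 (−0.71), naïve rat M378 (−0.82) or naïve rat M480 (−0.66), and without RIN in the model (−0.78).

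**Figure D3:**
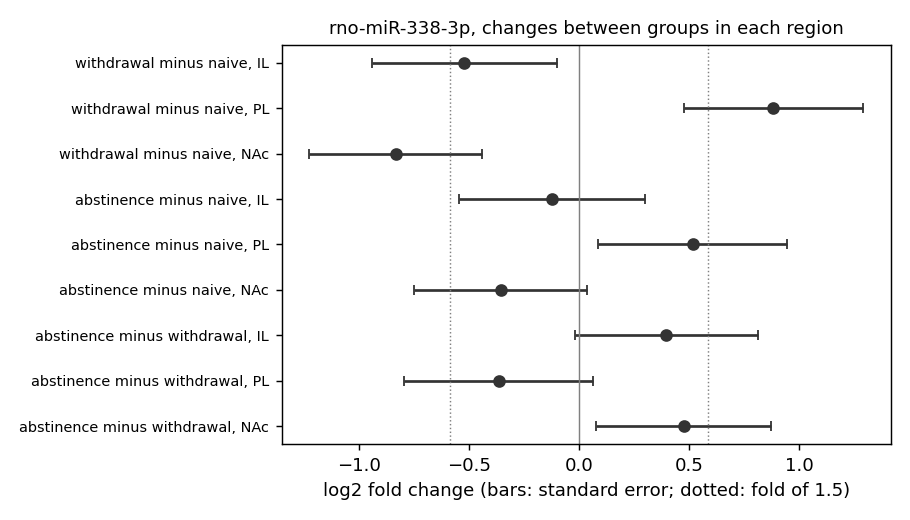
Log2 fold changes of rno-miR-338-3p between groups within each region, from edgeR. Points are the estimates, bars their standard errors, and dotted lines a fold of 1.5. At withdrawal the change was 0.88 in the PL and −0.83 in the NAc, and all changes after abstinence lie within the dotted lines.

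Averaged over the 3 regions, rno-miR-338-3p differed by −0.16 at withdrawal (SE 0.23, adjusted p = 0.861) and by 0.013 after abstinence (SE 0.25, adjusted p = 1) from naïve rats, and by 0.17 between abstinence and withdrawal (SE 0.25, adjusted p = 1, all by edgeR). That fit takes the 3 libraries of a rat as separate samples. With the 3 regions of each rat summed, the NAc, with most counts of this arm, weighs most. The differences, in the same order, were then −0.57 (SE 0.19, adjusted p = 0.907), −0.084 (SE 0.21, adjusted p = 0.998) and 0.49 (SE 0.21, adjusted p = 0.997, all by edgeR).

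After 4 weeks of abstinence, rno-miR-338-3p did not differ from naïve rats beyond the spread in any region. The log2FC was −0.12 (SE 0.42, adjusted p = 0.959) in the IL, 0.52 (SE 0.43, adjusted p = 0.925) in the PL and −0.36 (SE 0.39, adjusted p = 0.887) in the NAc by edgeR, and these comparisons called 8.32%, 2.41% and 1.09% of all miRNAs. Against withdrawal, abstinence differed by 0.40 (SE 0.42, adjusted p = 0.791), −0.36 (SE 0.43, adjusted p = 1) and 0.48 (SE 0.40, adjusted p = 0.999) in the IL, PL and NAc by edgeR. These comparisons called 6.35%, 3.50% and 0.875% of miRNAs. The estimates for abstinence thus had the sign of those for withdrawal and were smaller in each region, without being distinguishable from 0 or from withdrawal.

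The contrast between the cortical regions was also higher at withdrawal, although the test of this shift did not pass adjustment. In naïve rats M157, M378, M476 and M480, rno-miR-338-3p in the PL less that in the IL was −0.19, −1.30, −0.25 and 0.32 log2 CPM. In withdrawal rats M153, M366, M172 and M154 the same difference was 0.98, 0.87, 1.70 and 1.60 log2 CPM. How many other miRNAs separate these groups in this way was not counted. The edgeR test of this shift, given below, passed the thresholds for 9.85% of all miRNAs. In abstinent rats M170, M363, M472 and M456 the difference was −0.75, 1.34, 0.46 and 0.35 log2 CPM, which overlapped both other groups. All withdrawal libraries of the PL were deeper (11372613 to 18877136 counts) than those of the IL (8888971 to 10350700 counts). An effect of the region and one of depth can therefore not be told apart in these rats. Within withdrawal rats, the PL was 2.34-fold higher than the IL (log2FC = 1.23, SE 0.41, adjusted p = 0.0271 by edgeR), in a comparison that called 32.2% of miRNAs. That call ended when any withdrawal rat was left out (log2FC = 1.01 to 1.40). The number of miRNAs called also depended on single rats, and fell from 147 to 0 without M153, to 34 without M366 and to 45 without M154. Within naïve rats the difference was −0.24 (SE 0.41, adjusted p = 0.997 by edgeR) and within abstinent rats 0.45 (SE 0.41, adjusted p = 0.459 by edgeR), where edgeR called 0% of miRNAs in each. At p below 0.05 before adjustment, 3 miRNAs passed in naïve and 125 in abstinent rats, and DESeq2 called 0 and 33 and limma-voom 0 and 0.

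The shift itself was tested without a rat block, so that the 3 libraries of a rat counted as separate samples. As the change at withdrawal in the PL less that in the IL, it was 1.40 (SE 0.59, adjusted p = 0.443 by edgeR). This test passed the thresholds for 9.85% of all miRNAs. It ended without withdrawal rat M154 (1.11) or naïve rat M378 (1.23) and under limma-voom (1.34). The change in the NAc less that in the PL ranked 2 of 457 by p-value (−1.71, SE 0.56, adjusted p = 0.501 by edgeR), where 6.78% of miRNAs were called. It passed with any rat left out, from −2.18 without naïve rat M476 to −1.22 without withdrawal rat M154. The change in the NAc less that in the IL was −0.31 (SE 0.58, adjusted p = 0.999 by edgeR), where 1.09% were called. All 3 differences were fitted without a rat block, share the naïve and withdrawal libraries and are not independent. Those that include the PL also rest on its deeper withdrawal libraries.

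The arm ratio of miR-338 showed the same rats from the other side. In the PL its log2 value was 7.25 ± 0.60 in naïve and 6.41 ± 0.23 in withdrawal rats (SD, n = 4 each), lower by 0.84 (exact permutation p = 0.0571, adjusted over 9 comparisons p = 0.257). In the NAc it was 4.87 ± 0.88 in naïve and 5.37 ± 0.46 in withdrawal rats (SD, n = 4 each; exact permutation p = 0.314, adjusted p = 0.566). No comparison of the ratio between groups passed, and the groups overlapped in all 9. rno-miR-338-5p itself was not called in any of the 9 comparisons, with log2FC from −0.32 (withdrawal against naïve, IL) to 0.16 (withdrawal against naïve, PL).

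**Figure D4:**
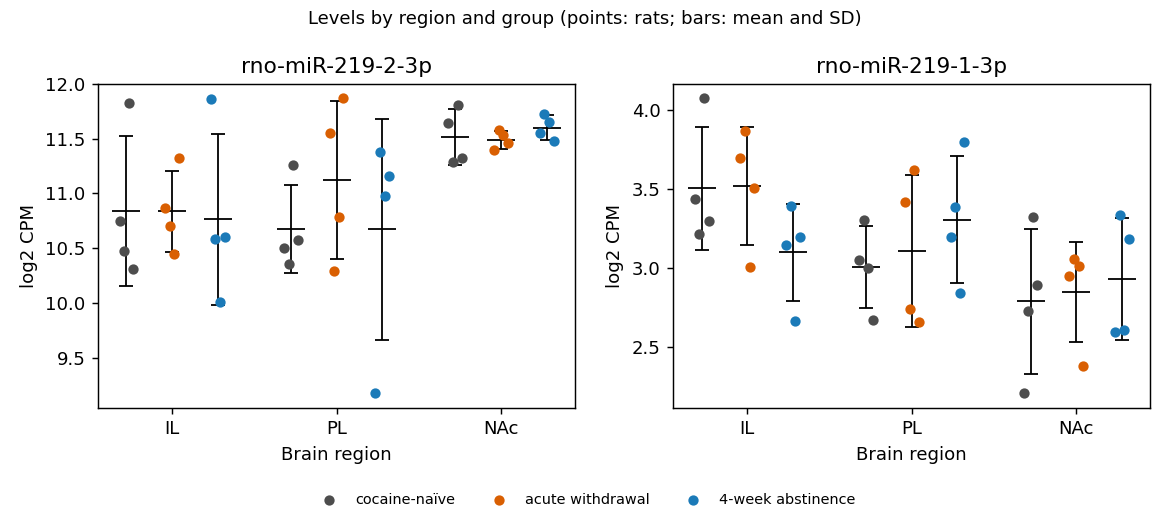
Levels (log2 CPM) of rno-miR-219-2-3p (left) and rno-miR-219-1-3p (right) in the IL, PL and NAc of cocaine-naïve, withdrawal and abstinent rats. Each point is 1 rat, and bars give the mean and SD of 4 rats. rno-miR-219-2-3p lies between 11.29 and 11.81 in the NAc and between 9.18 and 11.87 in the PL, where abstinent rat M170 is the lowest point.

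Of the miR-219 arms, rno-miR-219-2-3p, the 3p arm of the gene on chromosome 3, was higher in the NAc and also more even there. Its levels ranged from 11.29 to 11.81 log2 CPM in the NAc (mean 11.54 ± 0.16, SD, n = 12), against 9.18 to 11.87 in the PL (10.82 ± 0.71, SD, n = 12) and 10.01 to 11.86 in the IL (10.81 ± 0.57, SD, n = 12). The lowest and the highest cortical values came from PL libraries, 4779 counts in abstinent rat M170 and 47158 counts in withdrawal rat M154. It was 1.59-fold higher in the NAc than in the PL (log2FC = 0.67, SE 0.22, adjusted p = 0.0101 by edgeR) and 1.63-fold higher than in the IL (log2FC = 0.70, SE 0.22, adjusted p = 0.00546 by edgeR), in 10 of 12 rats in each case. These comparisons called 67.2% and 76.6% of all miRNAs tested, and by p-value this arm ranked 265 and 291 of 457. Whether other miRNAs were also more even in the NAc was not examined. The PL and IL differed by 0.035 (SE 0.22, adjusted p = 0.915 by edgeR). Between groups its log2FC ran from −0.45 (abstinence against withdrawal, PL) to 0.55 (withdrawal against naïve, PL), and none of the 9 comparisons was called.

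rno-miR-219-1-3p, the 3p arm of the gene on chromosome 20, did not share this pattern. Its level was 2.86 ± 0.36 log2 CPM in the NAc, 3.14 ± 0.38 in the PL and 3.37 ± 0.38 in the IL (SD, n = 12 each), so that it was lowest in the NAc. It was 1.44-fold lower there than in the IL (log2FC = −0.53, SE 0.15, adjusted p = 0.00254 by edgeR), and the difference from the PL did not pass (log2FC = −0.30, SE 0.15, adjusted p = 0.0818 by edgeR). The comparison with the IL called 76.6% of all miRNAs tested, and by p-value this arm ranked 284 of 457. Without scaling factors, the difference from the IL did not pass (−0.24) and that from the PL changed sign (0.065). The PL and IL differed by −0.23 (SE 0.15, adjusted p = 0.227 by edgeR).

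Between groups, rno-miR-219-1-3p was not called in any of 9 comparisons, with log2FC from −0.56 to 0.26. The lowest was abstinence against naïve in the IL (log2FC = −0.56, SE 0.29, adjusted p = 0.440 by edgeR), at 57, 90, 66 and 83 counts in abstinent rats M170, M363, M472 and M456 and 86, 102, 162 and 75 counts in naïve rats M157, M378, M476 and M480. The groups overlapped. The change after abstinence in the PL less that in the IL was 0.82 (SE 0.39, adjusted p = 0.540 by edgeR), a test that passed for 8.32% of all miRNAs. It ended under 4 of 7 other settings and when any of 6 of the 8 rats involved was left out (0.58 to 0.89 over these 6).

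rno-miR-219-5p, the arm known from oligodendrocytes, was near the limit of detection. Summed over the 12 libraries of a region, it had 80 counts in the NAc, 21 in the PL and 10 in the IL, of 141748472, 136889529 and 111839774 counts. It was detected in 12 of 12 NAc libraries, 7 PL libraries and 5 IL libraries. All 4 PL libraries of abstinent rats had 0 counts, which allows up to 0.253 to 0.313 CPM (3 counts per library), while their NAc libraries had 8, 3, 8 and 6 counts. In naïve PL libraries the counts were 3, 3, 2 and 2, and in withdrawal PL libraries 4, 0, 1 and 6. Values of so few counts were not compared between groups. Fitted without the filter on low counts, the arm was higher in the NAc than in the PL (log2FC = 2.43, SE 0.70, adjusted p = 0.00566 by edgeR) and the IL (log2FC = 2.35, SE 0.64, adjusted p = 0.00285 by edgeR), a fitted size that depends on the prior count.

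The abundant arms of the families moved together from library to library, although they come from hairpins on different chromosomes. After the mean of each group and region was removed, rno-miR-338-5p and rno-miR-219-2-3p had a Pearson r of 0.85 over the 36 libraries. Of all other miRNAs tested, each was the closest to the other, by this measure and over the log2 CPM values themselves (r = 0.88). Within regions r was 0.88 in the IL, 0.90 in the PL and 0.75 in the NAc (12 libraries each). The next closest to both was rno-miR-25-3p, of the miR-106b cluster (r = 0.71 with rno-miR-219-2-3p and 0.68 with rno-miR-338-5p). The libraries share preparation, depth and scaling, so these values describe the libraries and carry no test.

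Several libraries lay far out along this relation, among them the following. In abstinent rat M170, the PL library was low for both (−0.58 for rno-miR-338-5p and −1.49 for rno-miR-219-2-3p, log2 CPM less the group mean), while its IL library was high for both (1.03 and 1.09). Among withdrawal rats, the PL library was high for both in M154 (0.65 and 0.74) and low for both in M366 (−0.43 and −0.83). In naïve rat M476, the IL library (0.60 and 0.99) and the PL library (0.54 and 0.58) were high for both. Rat M170 thus departed in opposite directions in its cortical regions.

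rno-miR-338-3p followed this pair in the cortex and not in the NAc. Its deviations had an r of 0.85 with rno-miR-338-5p and 0.75 with rno-miR-219-2-3p in the PL, and of 0.53 and 0.64 in the IL. In the NAc, r was −0.37 and −0.56 (12 libraries each). These deviations were not adjusted for RIN. In the NAc, rno-miR-338-3p lay lowest in M363 (−1.23) and M476 (−0.82), the NAc libraries of lowest RIN (8.1 each). The NAc library of M456, at RIN 8.2, lay above its group mean (0.28). The part of RIN in these r values was not tested. Whether r differed between regions was not tested. The miRNAs closest to rno-miR-338-3p in its deviations were rno-miR-27b-3p (r = 0.81), rno-miR-450a-5p (0.79), rno-miR-21-5p (0.77), rno-miR-26b-5p (0.74) and rno-miR-340-3p (0.74), and the farthest were rno-miR-328a-3p (−0.75), rno-miR-543-5p (−0.69) and rno-miR-326-3p (−0.69). Over the log2 CPM values of all 36 libraries, which include the differences between regions, rno-miR-21-5p (r = 0.95), rno-miR-7a-5p (0.94) and rno-miR-27b-3p (0.94) were closest.

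rno-miR-219-1-3p kept apart from the other members. Its deviations had an r of 0.26 with rno-miR-219-2-3p, −0.21 with rno-miR-338-3p and −0.02 with rno-miR-338-5p over the 36 libraries. Its closest miRNAs were rno-miR-151-3p (r = 0.85), rno-miR-129-5p (0.83) and rno-miR-378a-3p (0.83). The SD between rats within a group and region was 0.63 for rno-miR-338-3p, 0.58 for rno-miR-219-2-3p, 0.41 for rno-miR-338-5p and 0.38 for rno-miR-219-1-3p on the log2 scale, where the median over the 457 miRNAs was 0.45.

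**Figure D5:**
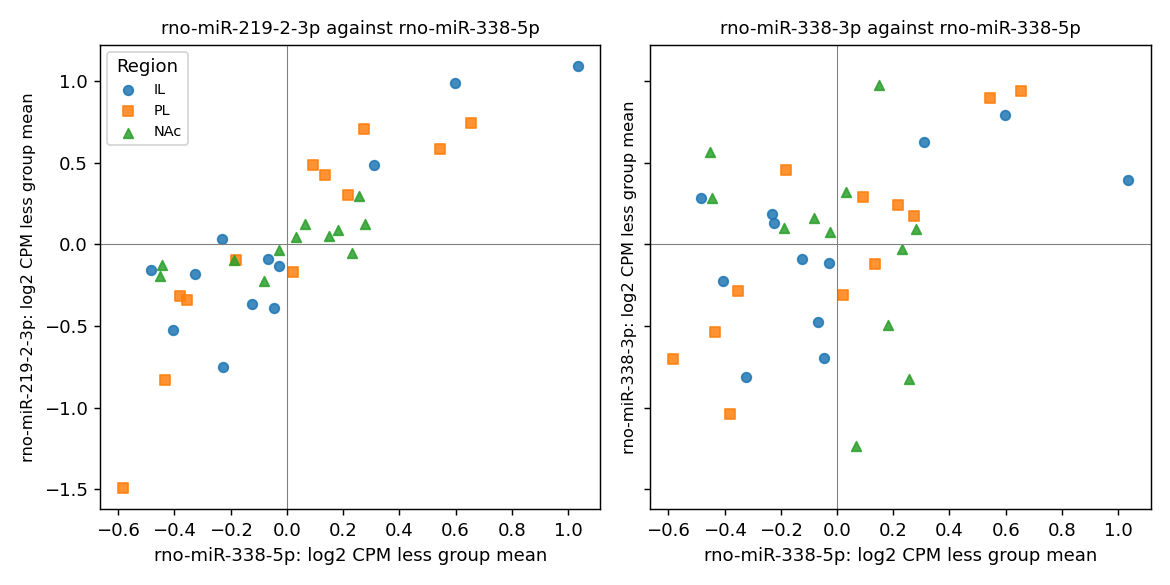
Log2 CPM less the mean of its group and region, for rno-miR-219-2-3p (left) and rno-miR-338-3p (right) against rno-miR-338-5p. Each point is 1 of 36 libraries and symbols mark the regions. The left panel lies along a rising line in all 3 regions (r = 0.75 to 0.90), and in the right panel the NAc points do not (r = −0.37).

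The members were set beside other miRNAs linked to oligodendrocyte maturation, a list of 8 tested arms that includes 4 members and the arms of miR-138 and miR-23a. Between the NAc and PL, 5 of the 8 had a higher level in the NAc and 2 a lower one, and the median log2FC was 0.50 against 0.068 over all miRNAs tested. In all, 67.2% of the miRNAs tested were called between these regions. Besides 3 members, rno-miR-138-2-3p (log2FC = 0.75, adjusted p = 2.14e-06 by edgeR) and rno-miR-138-5p (0.47, adjusted p = 0.000637 by edgeR) were higher. rno-miR-138-1-3p (−0.47, adjusted p = 0.000255 by edgeR) and rno-miR-23a-3p (−0.75, adjusted p = 0.00101 by edgeR) were lower. Between the NAc and IL, 5 were again higher and 2 lower, with a median of 0.57 against 0.099, where 76.6% of all miRNAs were called. Between groups, no member of the list other than rno-miR-338-3p was called in any region.

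miRNAs of other cells also differed between the NAc and PL, where 67.2% of all miRNAs were called. Of 3 miRNAs linked to oligodendrocyte progenitors, 2 were higher in the NAc than in the PL: rno-miR-7a-5p (log2FC = 2.48, adjusted p = 9.98e-09 by edgeR) and rno-miR-9a-5p (0.74, adjusted p = 0.00707 by edgeR). Of 6 neuronal miRNAs, 3 were higher (the most abundant being rno-miR-218a-5p, 1.18) and 3 lower (the most abundant being rno-miR-128-3p, −0.71). Of 3 immune and microglial miRNAs 1 was higher and 1 lower, of 4 vessel miRNAs 2 were higher and 1 lower, and of 5 miRNAs of choroid plexus and ependyma 1 was higher. The part of these other cells in the differences of miR-338 and miR-219 between regions was not tested.

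The miRNAs of these other cells were also compared between withdrawal and naïve rats. Of all miRNAs tested, 4.81% were called in the PL and 2.84% in the NAc. In the PL, 1 of 6 neuronal miRNAs (rno-miR-153-3p, log2FC = −1.66, adjusted p = 0.624 by edgeR) and 1 of 3 immune miRNAs (rno-miR-150-5p, −0.60, adjusted p = 0.624 by edgeR) were lower, and none of the progenitor, vessel or choroid plexus miRNAs was called. The summed level of the neuronal list in the PL was 219956 to 382579 CPM in naïve and 306832 to 420208 CPM at withdrawal, that of the immune list 781 to 1407 and 458 to 1020 CPM, and that of the progenitor list 8907 to 44822 and 33300 to 49907 CPM. Vessel miRNAs summed to 1538 to 6576 and 4251 to 5975 CPM, and those of choroid plexus and ependyma to 1029 to 1377 and 1086 to 1424 CPM. The groups overlapped in each list. In the NAc none of the 5 other lists had a member called. The part of these cells in the calls of rno-miR-338-3p was not tested.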

How the data were processed

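The table holds deposited raw counts of reads for each mature miRNA, with no normalization. The authors made it from NEBNext small RNA libraries by running CAP-miRseq. The study's methods name an older rat build than the submitters' processing notes (mRatBN7.2, rn7). Of 723 miRNAs, 95 had no count. The sources used here mention no molecular identifiers, so limits for a count of 0 cover counting error only. Samples were grouped by their labels, and libraries were tied to rats by region, group and RIN in the study's sample list, except 1 naïve NAc library, given to rat M480 as the only rat without one. Each group held separate animals.

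The filter on low counts was edgeR's filterByExpr with a minimum count of 10 and a total of at least 15, and it left 457 miRNAs with 99.998106% of counts. Tools were edgeR 4.0.16, DESeq2 1.42.0 and limma 3.58.1 under R 4.3.3, and pandas 2.3.3, scipy 1.17.1, numpy 2.4.6 and matplotlib 3.10.9 under Python 3.11.15. Log2 CPM used TMM factors and a prior count of 0.5, and the arm ratio added 0.5 to each count. The fits were tested on simulated data. Since each rat gave 3 libraries, rats pair the samples: between regions of 1 rat, deviations from group means had a median correlation of 0.23 (36 pairs, 27 above 0.1), and between different rats of a group one of −0.08 (108 pairs).

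The members and lists were chosen with earlier results of these data known. Named miRNAs are the members, the antisense miR-3065, up to 4 abundant members of each list, the 5 closest and 3 farthest miRNAs by Pearson r, and any called among a few. Alternatives were other scaling, no filter, DESeq2, limma-voom, no RIN, a rat block, single regions, naïve rats alone and leaving out each rat. Fits without a rat leave 3 against 4.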

Additional observations from a re-analysis of the deposited data

Results flagged for a closer look

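In 3 of 45 sets of 4 rats (4 arms and the arm ratio of miR-338, in 9 combinations of group and region), 1 rat lay far from the other 3, where chance flags about 1 in 20. rno-miR-338-3p was at 2.18 log2 CPM in the PL of abstinent rat M170, below the others at 3.06 to 3.17. rno-miR-338-5p was at 10.58 log2 CPM in the IL of the same rat, above the others at 9.06 to 9.32. rno-miR-219-1-3p was at 2.38 log2 CPM in the NAc of withdrawal rat M154, below the others at 2.95 to 3.06.

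The change of rno-miR-338-3p from naïve to withdrawal differed between regions by edgeR's test at p below 0.05 before adjustment, with −1.71 for the NAc less the PL and 1.40 for the PL less the IL. The change of rno-miR-219-1-3p from naïve to abstinence differed in the same way, by 0.82 for the PL less the IL. None of the 3 passed adjustment over 457 miRNAs (adjusted p = 0.501, 0.443 and 0.540).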

How the results depend on the processing

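Outside leave-outs, 273 of 290 values kept their direction and side of the threshold, as did all differences of miR-338 between the NAc and cortex. For rno-miR-338-3p, the call at withdrawal in the PL was lost under limma-voom (0.85) and with the rat as a replicate block (0.84), that in the NAc without RIN (−0.78), and that on the PL less the IL under limma-voom (1.34). The PL less the IL in naïve rats turned to 0.079 when these were fitted alone, and the change after abstinence over 3 regions to −0.17 without RIN and −0.0838 with regions summed. For rno-miR-219-1-3p without scaling factors, the NAc less the PL turned to 0.065 and the NAc less the IL lost its call (−0.24). Its difference after abstinence lost its call without scaling factors (0.68), under limma-voom (0.72), without RIN (0.75) and with the rat as a replicate block (0.69), and without the filter 1 group comparison was called. The PL less the IL turned to −0.051 (no scaling factors) and −0.080 (naïve rats alone) for rno-miR-219-2-3p, and to −0.051 (naïve rats alone) for rno-miR-338-5p. The cause of these changes was not tested.

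Leaving out 1 rat changed calls or signs over these ranges. For rno-miR-338-3p, withdrawal less naïve ran from 0.40 to 1.20 in the PL, from −0.97 to −0.66 in the NAc and from 1.11 to 1.64 for the PL less the IL. Abstinence less naïve ran from −0.27 to 0.11 in the IL and from −0.13 to 0.16 over 3 regions, and abstinence less withdrawal from −0.63 to 0.14 in the PL. The PL less the IL ran from 0.34 to 0.64 on average and from 1.01 to 1.40 at withdrawal, for rno-miR-338-5p from 0.0065 to 0.33 and for rno-miR-219-2-3p from −0.11 to 0.33. For rno-miR-219-1-3p, the NAc less the PL ran from −0.40 to −0.23 and the difference after abstinence from 0.58 to 1.01. Each of the 3 other arms had 0 to 1 group comparison called. The arm ratio ran from −0.22 to 0.25 (abstinence less naïve, IL), from −0.48 to 0.23 (abstinence less withdrawal, NAc) and from −0.43 to −0.20 (PL less IL).

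Counts of called miRNAs moved by over 1.5 times in 26 of 146 cases under other settings and in 55 of 152 when 1 rat was left out. Without 1 rat, the 22 at withdrawal in the PL became 5 (M378) to 55 (M476), the 13 in the NAc 8 (M378) to 23 (M476) and the 29 in the IL 8 (M153) to 58 (M154). After abstinence, the 5 in the NAc became 0 (M363) to 29 (M456), the 11 in the PL 8 (M378) to 23 (M476) and the 38 in the IL 24 (M476) to 73 (M472). Of the differences at withdrawal, the 31 for the NAc less the PL became 10 (M378) to 68 (M476) and the 45 for the PL less the IL 9 (M378) to 91 (M480). Other settings moved them as follows. In the IL, the 29 at withdrawal became 19 (limma-voom) or 45 (no RIN), the 38 after abstinence 58 (no RIN) and the 29 between these 18 (limma-voom, with or without the block). In the PL, 22 became 11 (the region alone), 11 became 17 (no filter) and 16 became 7 (limma-voom, with or without the block) or 5 (the region alone). In the NAc, 5 became 9 (no scaling factors), 15 (no filter), 11 (limma-voom), 10 (no RIN) and 10 (block), and 4 became 10 (no filter), 7 (DESeq2), 1 (limma-voom, with or without the block), 8 (no RIN) and 10 (the region alone). The PL less the IL went from 161 to 0 in naïve rats alone and, after abstinence, from 0 to 33 (DESeq2). Of the differences at withdrawal, 45 became 81 (no RIN) or 73 (block), and 5 became 9 (block). Counts of rno-miR-219-5p were too few for comparisons between groups.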
